A study of Mus musculus with 27 samples.

Results

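Interchromosomal joins that were blunt or used microhomology were examined in stimulated CH12F3 cells, a mouse B-cell lymphoma line that switches from IgM to IgA. A join was taken when its prey lay on a chromosome other than 12, outside 5 windows of 10 kb with many joins, and when its bait and prey alignments met exactly on the sequenced read or claimed some of the same bases. The windows left out were chr14:32420000-32429999, chr14:115440000-115449999, chr8:125950000-125959999, chr8:129110000-129119999 and chr1:20660000-20669999 (mm9). Of 193201 junctions, 39296 lay off chromosome 12, 1864 of these fell in the left-out windows and 11011 of the rest carried inserted or unassigned bases. The remaining 26421 joins are the ones described here. The choice used the position of the prey and the presence of a non-negative overlap. The length of that overlap, the strand and the chromosome spread played no part in it, except that the chromosome could not be 12.

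The junctions came from LAM-HTGTS, a translocation sequencing assay in which linear amplification out of a bait break enriches fragments that carry the DNA joined to it, called the prey. The groups were Ligase4-/- (2 clones, 6 libraries), XLF-/-PAXX-/- (2 clones, 6 libraries), XLF-/- (2 clones, 6 libraries), PAXX-/- (2 clones, 6 libraries) and WT (1 line, 3 libraries). All 27 libraries came from cells given IL-4 (20 ng/mL), αCD40 (1 mg/mL, as labelled) and TGFβ (1 ng/mL) for 72 h. Both XLF-/-PAXX-/- clones were derived from 1 PAXX-/- clone, 1 Ligase4-/- clone came from the WT parental line and the other came from another laboratory. Nothing in the labels says that the libraries of a clone were separate cultures, so p-values over libraries measure a spread that may be technical, and they take no account of clones. The junction tables hold no expression values, so neither the B-cell identity of the line nor the loss of the targeted proteins could be checked from them.

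Double-strand breaks in mammalian cells are rejoined mainly by classical non-homologous end joining. In it, Ku binds the ends, XRCC4 and DNA ligase 4 seal them, and XLF and PAXX assist the assembly on DNA. Joins made by this pathway are often direct or share very few bases, whereas alternative end joining more often anneals short stretches of matching bases, called microhomology. In B cells undergoing class switching the enzyme AID starts breaks in the switch regions of the heavy-chain locus, and at lower rates elsewhere in the genome. A switch-region end can then join a break on another chromosome, which gives a translocation.

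The bait lies at the 5′ side of Sμ on the minus strand of chromosome 12 (chr12:114664780-114664909, mm9), and its sequence is given as the deposited reads carry it. Capitals mark the 5 bases at which the bait part of interchromosomal joins ended most often.
bait: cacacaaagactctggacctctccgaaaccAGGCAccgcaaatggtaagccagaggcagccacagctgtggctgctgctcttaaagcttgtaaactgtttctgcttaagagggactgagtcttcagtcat

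The kinds of join can be seen in single reads, each chosen by its overlap length. Each line has 20 bases of bait, then the bases that both alignments claim, in capitals, then 30 bases of prey; a blunt join has no capitals.
chromosome 2, + strand, overlap of 0: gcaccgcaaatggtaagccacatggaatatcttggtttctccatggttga
chromosome 16, - strand, overlap of 1: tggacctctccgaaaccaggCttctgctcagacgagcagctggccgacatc
chromosome 6, - strand, overlap of 2: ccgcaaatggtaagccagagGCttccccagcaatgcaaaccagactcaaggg
chromosome 1, - strand, overlap of 3: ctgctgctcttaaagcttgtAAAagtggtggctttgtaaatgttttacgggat
chromosome 14, - strand, overlap of 4: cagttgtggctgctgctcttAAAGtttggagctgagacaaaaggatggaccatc
chromosome 3, + strand, overlap of 10: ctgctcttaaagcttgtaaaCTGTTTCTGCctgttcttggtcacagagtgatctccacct
The join with 1 shared base ends the bait inside the capitalised stretch of the bait, at position 114664876, the bait end used most often.

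Libraries held 3610 to 14524 junctions (median 6876), of which 369 to 2266 (median 856) were interchromosomal joins of the kind described. By genotype the joins numbered 9339 in Ligase4-/-, 5848 in XLF-/-PAXX-/-, 5013 in XLF-/-, 4785 in PAXX-/- and 1436 in WT cells. They made up 15.3% ± 3.25 of all junctions in Ligase4-/-, 11.8% ± 1.75 in XLF-/-PAXX-/-, 13.8% ± 5.63 in XLF-/- and 14.4% ± 5.98 in PAXX-/- libraries (SD, n = 6 each), and 12.5% ± 1.35 in WT libraries (SD, n = 3). The genotypes overlapped in this share. Depth set the counting error of a single library's share. A blunt share of 21.7% from 2266 joins has an exact Clopper-Pearson 95% interval of 20.0% to 23.4%, and one of 19.8% from 369 joins has an interval of 15.8% to 24.2%. These intervals cover counting error only. Joins identical in prey position, strand and bait end to an earlier line of their library numbered 92 of 26421 (0.348%). Among the libraries, 2 stood apart from their group. In library 2 of Ligase4-/- clone 2, 42.6% of joins had 4 or more shared bases. In library 1 of PAXX-/- clone 2, 25.6% of all junctions were joins of the kind described. Without the first, the Ligase4-/- minus WT difference in blunt share was -2.79 points, and without the second the PAXX-/- minus WT difference was 0.74 points, and neither removal gave a contrast that passed after adjustment.

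Blunt joins were common among interchromosomal joins in every genotype. In Ligase4-/- libraries 16.2% to 24.2% of the joins were blunt, with a median of 20.7%. In XLF-/-PAXX-/- libraries the blunt share ran between 17.0% and 22.0% (median 21.3%), and in XLF-/- libraries between 17.9% and 26.4% (median 21.5%). PAXX-/- libraries gave 20.4% to 28.6% (median 25.2%), and the 3 WT libraries gave 23.1%, 24.2% and 24.4%. Only the XLF-/-PAXX-/- libraries all lay below all WT libraries, and every other pair of genotypes compared overlapped.

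The blunt share averaged 20.4% ± 1.97 in XLF-/-PAXX-/- libraries (SD, n = 6) and 23.9% ± 0.682 in WT libraries (SD, n = 3). Their difference was -3.46 points with a 95% interval of -7.17 to -0.32 (exact permutation test over libraries, two-sided, p = 0.0357, adjusted p = 0.429 over 48 tests). Ligase4-/- libraries averaged 20.6% ± 3.18 (SD, n = 6), which differed from WT by -3.31 points (interval -7.96 to 0.84, exact permutation p = 0.155, adjusted p = 0.824). XLF-/- libraries averaged 21.9% ± 3.07 (SD, n = 6), a difference from WT of -2.02 points (interval -6.51 to 2.77, exact permutation p = 0.321, adjusted p = 0.824). With intervals this wide, a p above the threshold does not show that the shares were equal.

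PAXX-/- libraries averaged 24.8% ± 3.07 blunt joins (SD, n = 6), 0.91 points from WT (interval -3.80 to 5.50, exact permutation p = 0.619, adjusted p = 0.824). XLF-/-PAXX-/- libraries differed from PAXX-/- libraries by -4.37 points (interval -7.73 to -0.97, exact permutation p = 0.0238, adjusted p = 0.429). XLF-/- and PAXX-/- libraries shared 2 sequencing runs, and with libraries shuffled only within runs they differed by -2.92 points (interval -6.85 to 1.38, exact permutation p = 0.119, adjusted p = 0.714). Within those runs the difference was -4.49 points (2 libraries each) and -2.14 points (4 libraries each). The XLF-/-PAXX-/- and XLF-/- libraries differed by -1.44 points (interval -4.86 to 1.90) and the Ligase4-/- and XLF-/-PAXX-/- libraries by 0.16 points (interval -3.45 to 3.59). WT, XLF-/-PAXX-/- and Ligase4-/- libraries shared no run with another genotype, so there the effects of genotype and run cannot be told apart.

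None of the 48 contrasts by library, over 6 measures and 8 pairs of genotypes, passed at an adjusted p of 0.05 (percent called 0). An unadjusted p of 0.05 or less was found in 5 of 48 (10.4%). The smallest p that exact permutation allowed was 0.0119 against the 3 WT libraries, and 0.00216 at the lowest in the other contrasts. No single contrast could therefore pass an adjustment over 48 tests by itself, and the lack of calls does not show that genotypes were equal. Groups did not overlap in 1 of the 48 contrasts (2.08%), the blunt share of XLF-/-PAXX-/- against WT given above. Over the 9 clones, 51.5% of the variation (sum of squares) in the blunt share lay between genotypes (exact permutation test over all splits of the clones, p = 0.505, adjusted p = 0.946). For none of the 6 measures did the test over clones pass, adjusted or not, and its lowest p was 0.288, for the strand.

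Among the joins with at least 1 shared base, the mean length of microhomology was 4.24 ± 0.626 bases in Ligase4-/-, 4.01 ± 0.102 in XLF-/-PAXX-/-, 4.05 ± 0.109 in XLF-/- and 4.21 ± 0.252 in PAXX-/- libraries (SD, n = 6 each), and 4.47 ± 0.398 bases in WT libraries (SD, n = 3). The XLF-/-PAXX-/- mean differed from WT by -0.46 bases (interval -0.86 to -0.09, exact permutation p = 0.0357, adjusted p = 0.429). The XLF-/- mean differed from WT by -0.42 bases (interval -0.76 to -0.03, exact permutation p = 0.0476, adjusted p = 0.457). Both differences changed sign, to 0.065 and 0.015 bases, when joins with 10 or more shared bases were left out. Without WT library 1 they were -0.266 bases (exact permutation p = 0.107) for XLF-/-PAXX-/- and -0.221 bases (exact permutation p = 0.179) for XLF-/-. Joins sharing 4 or more bases were 33.3% ± 4.75 in Ligase4-/-, 30.7% ± 2.195 in XLF-/-PAXX-/-, 30.1% ± 1.96 in XLF-/- and 29.3% ± 3.66 in PAXX-/- libraries (SD, n = 6 each), and 31.2% ± 1.40 in WT libraries (SD, n = 3). The remaining contrast with an unadjusted p under 0.05 was the share of all junctions that were such joins. Ligase4-/- minus XLF-/-PAXX-/- libraries gave 3.48 points, with an interval of 0.46 to 6.95 (exact permutation p = 0.0216, adjusted p = 0.429). It was 2.26 points without library 1 of Ligase4-/- clone 1, 1.53 without that clone (exact permutation p = 0.19) and 2.11 without XLF-/-PAXX-/- clone 2 (exact permutation p = 0.333), against 5.43 without Ligase4-/- clone 2.

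**Figure D1:**
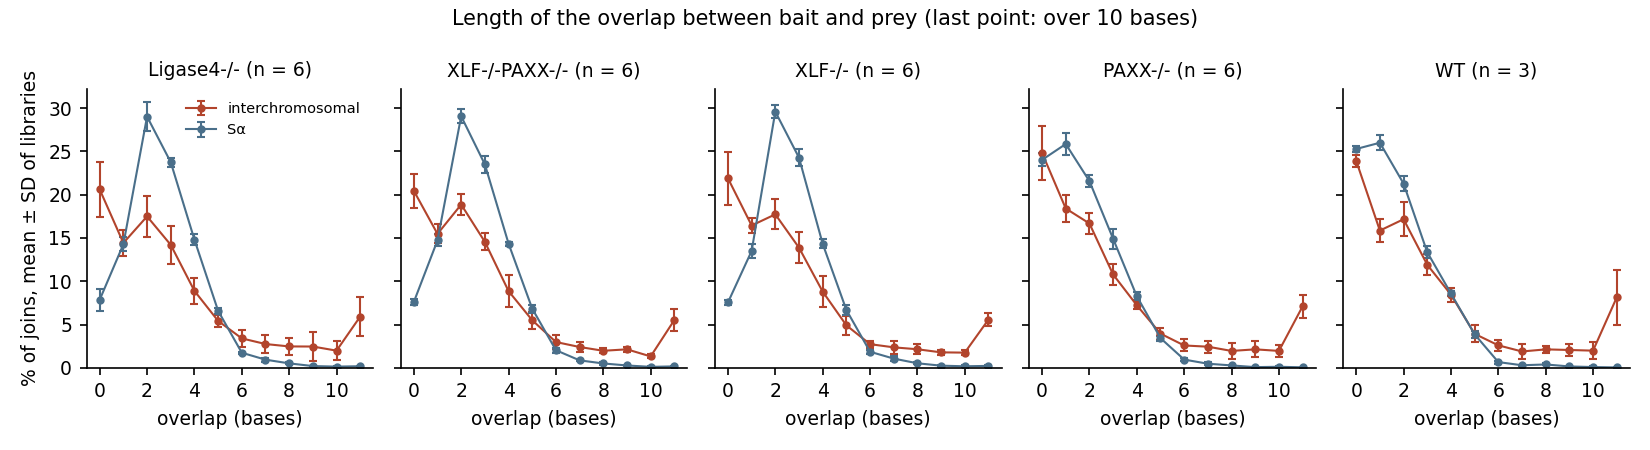
Share of joins by overlap length, in percent (vertical axis), for interchromosomal joins and Sα joins of each genotype; points are means of libraries, bars are SD, and the last point holds overlaps over 10 bases. Interchromosomal joins start at 20.4% to 24.8% blunt in all genotypes, and Sα joins start at 7.55% to 7.86% in 3 of them.

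Joins from the same bait and the same libraries to Sα, the acceptor switch region for IgA, gave a comparison within the cells. Sα was taken as the 20 kb around the 1 kb of chromosome 12 with most junctions at least 50 kb from the bait (chr12:114489501-114509500, mm9), and 65528 of its joins had an overlap of 0 or more. Blunt joins averaged 20.6% ± 3.18 of interchromosomal joins against 7.86% ± 1.25 of Sα joins in Ligase4-/- libraries. In XLF-/-PAXX-/- libraries they averaged 20.4% ± 1.97 against 7.60% ± 0.308 at Sα, and in XLF-/- libraries 21.9% ± 3.07 against 7.55% ± 0.345 (SD, n = 6 each). PAXX-/- libraries had 24.8% ± 3.07 against 24.0% ± 0.740 at Sα (SD, n = 6), and WT libraries 23.9% ± 0.682 against 25.3% ± 0.311 (SD, n = 3). Every Ligase4-/-, XLF-/-PAXX-/- and XLF-/- library had a higher blunt share among interchromosomal joins than at Sα, with no overlap between the classes.

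**Figure D2:**
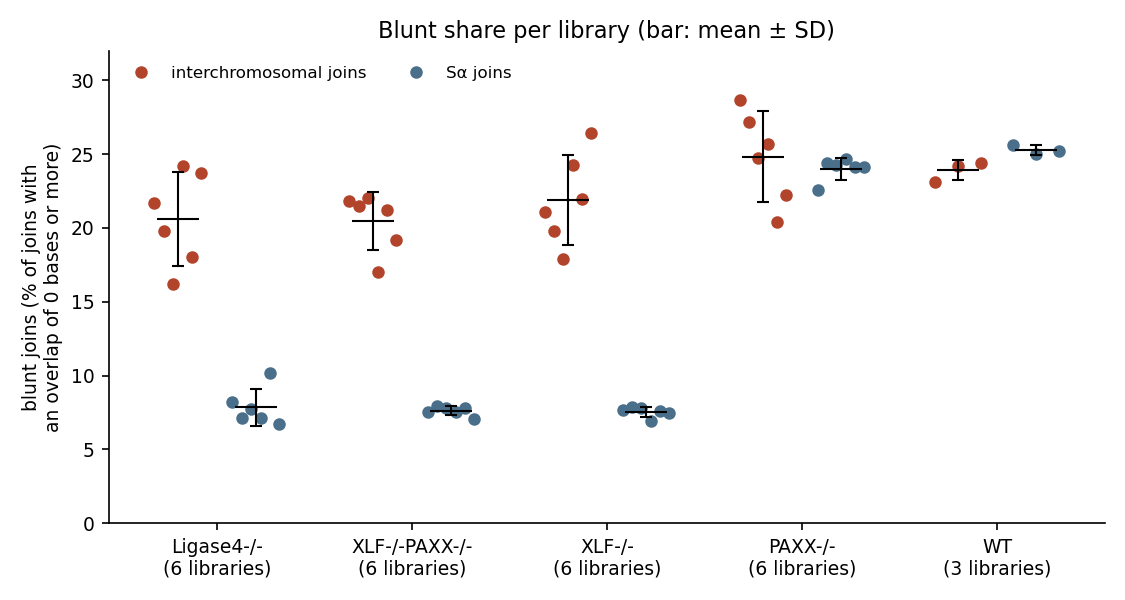
Blunt joins in percent of joins with an overlap of 0 bases or more, 1 point per library, with the mean and SD as bars. Interchromosomal joins lie between 16.2% and 28.6% in all genotypes, whereas Sα joins lie between 6.73% and 10.2% in Ligase4-/-, XLF-/-PAXX-/- and XLF-/- libraries and between 22.6% and 25.6% in PAXX-/- and WT libraries.

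The difference of the blunt shares, interchromosomal minus Sα within each library, was compared between genotypes after the values had been seen. It was 14.3 ± 3.33 points in XLF-/- libraries (SD, n = 6) and -1.37 ± 0.957 in WT libraries (SD, n = 3), 15.7 points apart (interval 10.9 to 20.9, exact permutation p = 0.0119, the smallest these group sizes allow, adjusted p = 0.0212). XLF-/- libraries also exceeded PAXX-/- libraries, at 0.80 ± 3.45 (SD, n = 6), by 13.5 points, with libraries shuffled within runs (interval 9.36 to 18.1, exact permutation p = 0.00476, adjusted p = 0.019). XLF-/-PAXX-/- libraries exceeded WT by 14.2 points and PAXX-/- by 12.05 points, and Ligase4-/- libraries exceeded WT by 14.1 points, each called with an adjusted p of at most 0.0212 by exact permutation. PAXX-/- and WT libraries differed by 2.16 points (interval -2.92 to 7.36, exact permutation p = 0.333). For the blunt share 5 of 8 contrasts were called, and over all 32 such contrasts (blunt share, its log2 ratio, long microhomology and mean length) 18 were called (56.2%). Over the 9 clones, 92.3% of the variation (sum of squares) in the blunt difference lay between genotypes (exact permutation, p = 0.0402, adjusted p = 0.0776). This test took all 5 genotypes at once and did not pass after adjustment. Where several genotypes have similar values, many splits of the clones give nearly the same result, so it cannot give a very small p. The single contrasts were not tested over clones.

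Over the 9 clones, joins with 4 or more shared bases averaged 30.9% of interchromosomal joins against 21.4% of Sα joins, higher in 9 of 9 clones (exact sign-flip permutation test, p = 0.00391, the smallest it allows, adjusted p = 0.00586). Mean microhomology length was 4.17 against 2.68 bases, also higher in 9 of 9 clones with the same p. Both differences were smaller without overlaps of 10 or more bases. When these were left out, the difference in joins with 4 or more shared bases was 3.71 points instead of 9.53, higher in 7 of 9 clones (exact sign-flip permutation, p = 0.043, adjusted p = 0.043), and that in mean length was 0.484 bases instead of 1.48, higher in 9 of 9. The blunt share was 22.2% against 13.3%, higher in 7 of 9 clones (exact sign-flip permutation, p = 0.0156, adjusted p = 0.0156), and PAXX-/- clone 2 and WT were the exceptions.

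Overlaps of 10 bases or more made up 2054 of 26421 interchromosomal joins (7.77%) and 195 of 65528 Sα joins (0.298%). Overlaps of 7 or more made up 14.6% of interchromosomal joins and 1.75% of Sα joins. Per library, overlaps of 10 or more were 7.91% ± 3.26 of interchromosomal joins in Ligase4-/-, 6.84% ± 1.37 in XLF-/-PAXX-/-, 7.33% ± 0.908 in XLF-/- and 9.05% ± 1.52 in PAXX-/- libraries (SD, n = 6 each). The 3 WT libraries gave 12.4%, 10.7% and 7.29%. The ranges of all genotypes overlapped. Library 2 of Ligase4-/- clone 2 stood highest at 14.3%. The bait parts of these long-overlap joins ended in the capitalised bait stretch less often, in 7.64% ± 3.51, against 35.3% ± 5.37 of blunt joins (SD, n = 27 libraries). Joins sharing 1 to 3, 4 to 6 and 7 to 9 bases lay between, at 30.7%, 20.1% and 22.4%. The shared bases count as part of the bait here, so a longer overlap by itself moves the bait end along.

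Exact prey positions rarely recurred. The joins fell on 25888 distinct junctions (same chromosome, position and strand), and 99.1% of these were seen in a single library. At Sα 60.4% of 13116 distinct junctions were seen in more than 1 library. Of the 17 interchromosomal junctions found in 5 or more libraries, 16 had an overlap of 10 or more bases in every join, and the median overlap of their joins was 16 bases. Of the 5 junctions found in most libraries, 4 are printed, with the shared bases in capitals, because they show what recurs. The other one, found in 8 libraries as 8 joins of 6 clones and all 5 genotypes with overlaps of 17 to 20 bases, is given without its sequence.
chromosome 8, - strand, 8 libraries: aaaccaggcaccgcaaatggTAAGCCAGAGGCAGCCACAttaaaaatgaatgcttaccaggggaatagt
chromosome 6, - strand, 7 libraries: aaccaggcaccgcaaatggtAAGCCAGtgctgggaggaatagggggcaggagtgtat
chromosome 8, + strand, 7 libraries: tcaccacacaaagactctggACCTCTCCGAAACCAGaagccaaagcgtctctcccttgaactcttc
chromosome 16, + strand, 7 libraries: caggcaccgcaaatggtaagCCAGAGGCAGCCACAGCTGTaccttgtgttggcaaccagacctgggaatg
Each printed prey thus carries, at the join, a copy of a run of the bait. Where a read holds such a run, the break point within it cannot be placed. The chromosome 8 minus-strand junction was found in 4 genotypes, as 9 joins in 6 clones.

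Among the short overlaps, the shared bases were uneven. Of 4167 interchromosomal joins with 1 shared base, the base was C in 34.3%, G in 27.8%, A in 27.1% and T in 10.7%, written along the bait strand. Of 11348 Sα joins with 1 shared base, it was G in 38.2%, C in 25.1%, A in 22.3% and T in 14.3%. Of the 4736 interchromosomal joins with 2 shared bases, GC made up 24.3% and CA 19.3%. Of 3599 with 3 shared bases, GGC made up 11.2% and CAG 10.3%. GC, CA, GGC and CAG all occur in or beside the capitalised bait stretch, and all of them also occur elsewhere in the bait. How many of these shared bases lay at that stretch was not counted.

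The bait ends themselves were concentrated there. The bait part ended at chr12:114664875-114664879 in 26.0% ± 3.43 of the joins in Ligase4-/-, 25.5% ± 3.09 in XLF-/-PAXX-/-, 28.5% ± 5.0 in XLF-/- and 28.6% ± 5.45 in PAXX-/- libraries (SD, n = 6 each), and in 30.3% ± 1.79 in WT libraries (SD, n = 3). Over the 27 libraries this was 27.5% ± 4.21 of interchromosomal joins against 7.65% ± 2.59 of Sα joins. The stretch was chosen for its high count, so these values are a description. Position 114664876 alone held 9.81% ± 1.78 of interchromosomal joins, and 32.02% of the joins ending there were blunt. At position 114664875, where the base is the last of the stretch, 2.27% were blunt and the median overlap was 2 bases.

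**Figure D3:**
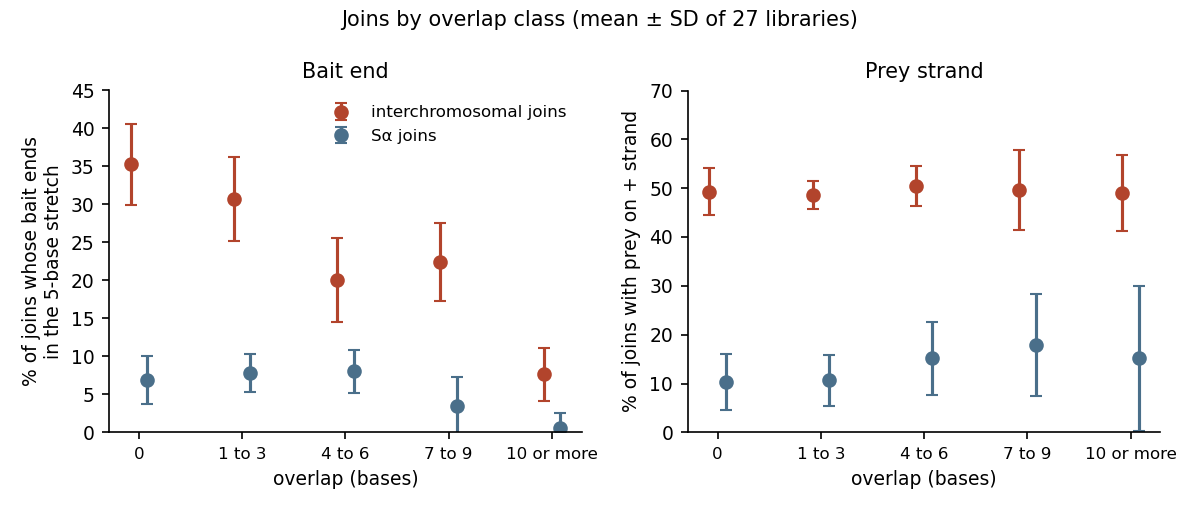
Left, joins whose bait ends in the 5-base stretch, in percent. Right, joins with prey on the plus strand, in percent. Interchromosomal and Sα joins are shown by overlap class, as mean and SD of 27 libraries. Bait ends in the stretch fall to 7.64% of interchromosomal joins with 10 or more shared bases against 35.3% of blunt ones. The plus-strand share of interchromosomal joins stays near 50% in every class, and that of Sα joins lies between 10.3% and 17.8%.

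Prey strands were nearly even. The plus strand held 12960 of 26421 joins (49.1%, exact 95% interval 48.4% to 49.7%), and 16 of 27 libraries were under 50%. That interval pools the joins of all libraries and covers counting error only. The libraries themselves averaged 49.2% ± 2.17 (SD, n = 27) and ran between 44.6% and 54.0%. The plus-strand share was 48.3% ± 2.70 in Ligase4-/-, 48.9% ± 1.56 in XLF-/-PAXX-/-, 50.3% ± 2.74 in XLF-/- and 49.5% ± 1.54 in PAXX-/- libraries (SD, n = 6 each), and 49.1% ± 2.34 in WT libraries (SD, n = 3). None of the 8 contrasts between genotypes was called. Mouse chromosomes have the centromere at one end, so with this bait a plus-strand prey gives a product without a centromere and a minus-strand prey one that has a centromere. Among Sα joins, where the strand separates deletion from inversion, 11.7% ± 5.88 were on the plus strand (SD, n = 27 libraries). By autosome the share ran between 47.7% on chromosome 9 and 52.0% on chromosome 8.

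The joins were spread over all chromosomes, with more than their share of length on chromosomes 11, 15 and 16 and less on X and Y. Chromosome 11 held 2101 joins, or 17.2 per Mb of the length spanned by junctions, and its share of joins was 1.56 ± 0.216 times its share of that length (SD, n = 9 clones), above 1 in 9 of 9 clones. Chromosome 15 held 14.2 per Mb (1.35 ± 0.117 times) and chromosome 16 held 13.1 per Mb (1.27 ± 0.138 times), each also above 1 in 9 of 9 clones. The X chromosome held 618 joins or 3.71 per Mb, 0.359 ± 0.0466 times its share of length, below 1 in all clones. Chromosome 3 held 9.13 per Mb, the fewest among autosomes, and chromosome Y held 1 join on the 2.40 Mb spanned. How many copies of each chromosome the line carries was not measured.

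Relative to the autosomes, X density was 0.290 ± 0.0388 in Ligase4-/-, 0.357 ± 0.0740 in XLF-/-PAXX-/-, 0.323 ± 0.0542 in XLF-/- and 0.406 ± 0.0887 in PAXX-/- libraries (SD, n = 6 each), and 0.340 ± 0.0783 in WT libraries (SD, n = 3). Among off-chromosome-12 junctions with inserted or unassigned bases, which are no part of the joins described, the X density over all libraries was 0.699. For chromosome 11, the density relative to autosomes was 1.65 ± 0.357 in Ligase4-/-, 1.61 ± 0.0942 in XLF-/-PAXX-/-, 1.47 ± 0.154 in XLF-/- and 1.36 ± 0.154 in PAXX-/- libraries (SD, n = 6 each), and 1.26 ± 0.0616 in WT libraries (SD, n = 3). Across the 20 chromosome shares tested over clones, none differed between genotypes after adjustment (percent called 0), and 1 of 20 (5%) had an unadjusted exact permutation p of 0.05 or less. That was X, at an exact permutation p of 0.0159 and an adjusted p of 0.317, with 2.01% ± 0.264 of joins in Ligase4-/- and 2.79% ± 0.593 in PAXX-/- libraries at the ends of the range (SD, n = 6 each).

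**Figure D4:**
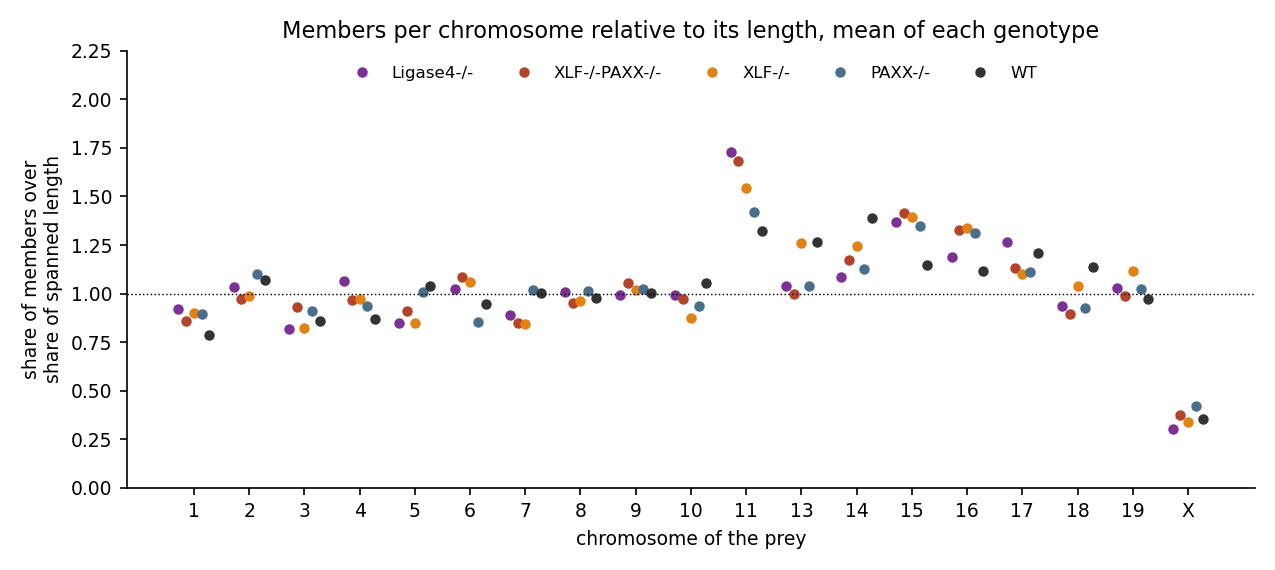
Share of interchromosomal joins on each chromosome divided by that chromosome's share of the spanned length (vertical axis), 1 point per genotype; the dotted line marks a share equal to length. Chromosome 11 lies between 1.32 and 1.73 and X between 0.304 and 0.422.

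On a finer scale most joins stood alone. They fell in 21943 windows of 10 kb, and 90.3% of these windows held a single join. The 30 windows with joins in 10 or more libraries held 1016 joins (3.85%). The 5 windows present in most libraries were chr2:98500000-98509999 (60 joins in 19 libraries), chr6:70670000-70679999 (84 in 18), chr6:122500000-122509999 (70 in 18), chr11:61460000-61469999 (61 in 18) and chr14:115430000-115439999 (55 in 16), which borders a left-out window. Positions are mm9, for which no annotation was used, so the genes there are not named.

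The windows differed in which genotypes filled them, though raw counts also follow the number of joins of each genotype. The chromosome 2 window held 19, 9, 16, 14 and 2 joins of Ligase4-/-, XLF-/-PAXX-/-, XLF-/-, PAXX-/- and WT libraries, all on lower-case, repeat-masked reference bases, and 25 of its 60 joins were blunt. The chromosome 6 window at 70670000 held 55 joins of Ligase4-/-, 15 of XLF-/-PAXX-/-, 10 of XLF-/-, 1 of PAXX-/- and 3 of WT libraries, at 83 positions. That at 122500000 held 44, 12, 11, 2 and 1 in the same order of genotypes, the chromosome 11 window 39, 12, 8, 1 and 1, and the chromosome 14 window 21, 15, 19, 0 and 0. With the PAXX-/- and WT libraries holding 4785 and 1436 joins in all, a count of 0 allows up to 3 joins in each.

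Over the 30 windows, Ligase4-/- libraries had 54.5 ± 35.0 of each 1000 joins there, XLF-/-PAXX-/- 35.0 ± 10.2, XLF-/- 34.9 ± 17.6 and PAXX-/- 10.0 ± 5.92 (SD, n = 6 each), and WT 11.6 ± 8.16 (SD, n = 3). Ligase4-/- clone 1, with 49.4, 87.2 and 107 per 1000, lay above clone 2, with 30.1, 21.3 and 31.4. XLF-/- clone 1 (50.9, 54.2 and 46.7) likewise lay above clone 2 (14.6, 19.6 and 23.4). The Ligase4-/- clones shared no sequencing run, so clone and run cannot be told apart there, whereas the XLF-/- clones shared their runs. The 6 PAXX-/- libraries had between 4.50 and 20.4, and the WT libraries 21.0, 6.54 and 7.29. The windows were picked by how many libraries held these same joins, and genotypes with more joins had more chance to place a window among them. No test was made for that reason.

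**Figure D5:**
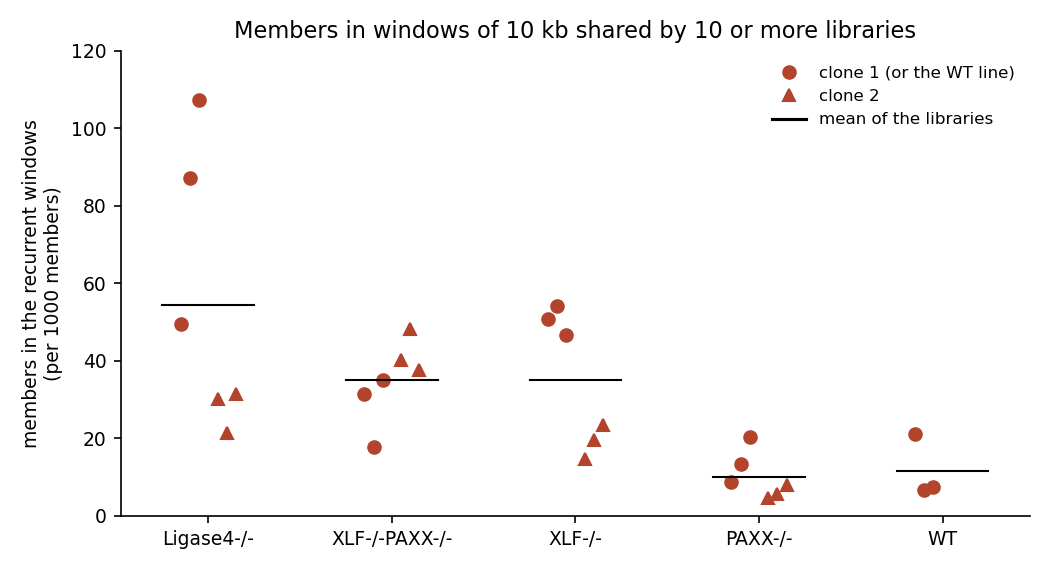
Joins in the 30 recurrent windows per 1000 interchromosomal joins, 1 point per library, with the mean of each genotype as a line. Ligase4-/- libraries range between 21.3 and 107, and PAXX-/- and WT libraries between 4.50 and 21.0.

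Joins inside the recurrent windows are described by their structure without a test. In them 106 of 1016 joins were blunt (10.4%, exact 95% interval 8.62% to 12.5%) against 22.5% ± 2.96 outside (SD, n = 27 libraries). The inside value pools all joins, 597 of them of Ligase4-/- libraries, and the outside value is a mean of library shares, so the 2 weigh genotypes differently. Overlaps of 1 to 6 bases made up 85.6% inside, and overlaps of 10 or more made up 0.984% inside against 8.05% outside. The bait part ended in the capitalised stretch in 11.3% inside and 28.0% outside. The blunt share inside was 8.71% in Ligase4-/- (52 of 597 joins), 10.4% in XLF-/-PAXX-/- (21 of 201), 12.7% in XLF-/- (20 of 157), 24.4% in PAXX-/- (11 of 45) and 12.5% in WT libraries (2 of 16). The exact 95% intervals, which cover counting error only and pool the joins of all libraries of a genotype, were 6.57% to 11.3% in Ligase4-/-, 12.9% to 39.5% in PAXX-/- and 1.55% to 38.3% in WT libraries, and no genotypes were compared by them. Outside the windows the blunt share was 21.3% ± 3.05, 20.8% ± 1.92, 22.2% ± 3.13 and 24.8% ± 3.06 in Ligase4-/-, XLF-/-PAXX-/-, XLF-/- and PAXX-/- libraries (SD, n = 6 each) and 24.0% ± 0.769 in WT libraries (SD, n = 3). Without the windows chromosome 11 still had 1.48 times the density of autosomes, and X had 0.352.

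Reads in 17 of the 30 windows shared 30 identical bases with a RefSeq promoter or miRNA hairpin of the same chromosome (RefSeq tables of build GRCm38.p6). Such a match can be to a repeat and does not by itself place a join in that promoter. The windows named here have 3 or more matching joins and were singled out after their values were seen. In chr8:87500000-87509999, 3 of 39 joins matched the promoter of Junb, a subunit of the AP-1 transcription factor. In chr11:87570000-87579999, 3 of 26 matched the hairpin of Mir142, a microRNA abundant in blood cells, and the promoters of Gm51883, Zkscan6, Gm32384, Mxra7 and Gm35878 each matched 1 join. In chr17:29620000-29629999, 9 of 46 matched the promoter of Gm26885. In chr5:23210000-23219999, 4 of 43 matched the promoters of Gm52787 and Gm52796. All 43 joins of that window lay on lower-case, repeat-masked reference bases. The 3 Junb joins shared 3, 3 and 10 bases and the 3 Mir142 joins 0, 1 and 1. All 3 Junb joins and 1 Mir142 join, from Ligase4-/- clone 1, are printed to show this spread. A label names what the read matched. The matching bases need not be among those printed, and the break point need not lie in the promoter or hairpin.
Junb promoter, overlap of 3: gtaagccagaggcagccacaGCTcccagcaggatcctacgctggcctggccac
Junb promoter, overlap of 3: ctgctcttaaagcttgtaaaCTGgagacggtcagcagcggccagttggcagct
Junb promoter, overlap of 10: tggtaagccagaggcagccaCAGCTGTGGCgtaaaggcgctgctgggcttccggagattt
Mir142 hairpin, overlap of 0: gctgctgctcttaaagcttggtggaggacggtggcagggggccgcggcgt

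Prey bases at the join were lower-case in the reference, marking repeats, in 36.7% ± 2.75 of joins (SD, n = 27 libraries), and in 29.3% ± 5.64 of those with 10 or more shared bases. The share was 34.3% ± 0.693 in Ligase4-/-, 35.1% ± 2.02 in XLF-/-PAXX-/-, 38.2% ± 1.16 in XLF-/- and 39.5% ± 3.14 in PAXX-/- libraries (SD, n = 6 each), and 36.4% ± 2.13 in WT libraries (SD, n = 3). The bait part averaged 58.0 ± 1.75 bases and the prey part had a median of 139 ± 13.5 bases (mean and SD of 27 libraries). PAXX-/- libraries had the longest prey parts, with medians of 146 to 159 bases, against 133 to 141 bases in WT libraries. Whether read length bears on the shares above was not tested beyond the limit of 50 prey bases given with the other settings.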

How the data were processed

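LAM-HTGTS junctions of 27 samples, 3 libraries of each of 9 clones, were analysed. Per the submitters' processing notes, Bowtie2 and the mm9 build were part of the authors' processing; what else was done upstream is not given in the sources used here. Each deposited table, made by the authors, holds the 3 libraries of a clone and lists 1 junction per line with positions, strand and alignment ends. Overlap was the number of read bases claimed by both alignments (0 blunt, above 0 microhomology). Library names carry no replicate number, so libraries were numbered as names only.

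The 6 measures taken per library were the share of all and of off-chromosome-12 junctions, the blunt share, the share with 4 or more shared bases, mean microhomology length and the plus-strand share. Genotypes were compared over clones (exact permutation over all splits, Benjamini-Hochberg over 6) and in 8 contrasts over libraries (exact two-sided permutation, XLF-/- against PAXX-/- within runs, adjusted over 48). The test over clones takes them as independent, although the XLF-/-PAXX-/- clones share an origin. Intervals invert that permutation test. Classes were compared over 9 clones by sign flips. The tests were tried on simulated data. The rule named the 3 chromosomes with most and fewest joins per Mb, the 5 windows of 10 kb and the 5 exact junctions in most libraries (1 without its sequence), and reads by overlap length. Members and lists were chosen with earlier results of these data known. In 96.7% of joins the first 10 prey bases of the read equalled the listed genome bases. Read names showed 8 sequencing runs. Python 3.11.15, numpy 2.4.6, pandas 2.3.3, scipy 1.17.1 and matplotlib 3.10.9 were used.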

Additional observations from a re-analysis of the deposited data

Results flagged for a closer look

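Library 2 of Ligase4-/- clone 2 lay far above the other 5 Ligase4-/- libraries in the share of joins with 4 or more shared bases, at 42.6%, and in the share with 10 or more, at 14.3%. Library 1 of PAXX-/- clone 2 lay far above the other 5 PAXX-/- libraries in the share of all junctions that were interchromosomal joins of this kind, at 25.6%. Dixon's test at the 95% level was applied to 32 groups of 6 libraries (8 measures in 4 genotypes), and chance flags about 1 in 20. The excess of blunt joins among interchromosomal over Sα joins differed between genotypes by exact permutation over libraries. It was 15.7 points larger in XLF-/- than in WT, 14.2 points larger in XLF-/-PAXX-/- than in WT and 14.1 points larger in Ligase4-/- than in WT libraries. It was 13.5 points larger in XLF-/- and 12.05 points larger in XLF-/-PAXX-/- than in PAXX-/- libraries. Over the 9 clones the test of the excess, over all 5 genotypes at once, did not pass after adjustment (exact permutation, adjusted p = 0.0776). The single contrasts were not tested over clones. Minus WT, the blunt share at Sα was -17.7 to -17.4 points in XLF-/-, XLF-/-PAXX-/- and Ligase4-/- libraries. That of interchromosomal joins was -3.46 to -2.02 points, so a larger excess was not a higher interchromosomal blunt share. Every Ligase4-/-, XLF-/-PAXX-/- and XLF-/- library had a larger excess than every library it was compared with in these contrasts. Sequencing run and genotype cannot be told apart in any of them except XLF-/- against PAXX-/-.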

How the results depend on the processing

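No paired analysis was possible because the library names carry no replicate number by which to match libraries of different genotypes; the comparisons within a library, clone or run are not of that kind. Across 43 alternative settings (single junctions counted once, left-out windows put back, assembled chromosomes only, prey of 50 bases or more, insertions in the denominator, overlaps above 10 left out, and, added after seeing the data, without the recurrent windows or without overlaps of 10 or more, and each library or clone left out), 0 of the contrasts between genotypes over the 6 measures passed after adjustment, 1 to 7 had an unadjusted p of 0.05 or less, and the lowest adjusted p was 0.104.

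Results that were not called also moved across 0. The Ligase4-/- minus XLF-/-PAXX-/- difference in blunt share became -1.29 points with insertions in the denominator, and ran between -1.23 and 1.54 with 1 library or clone left out. With 1 library or clone left out, that of PAXX-/- minus WT ran between -1.14 and 2.96, that of XLF-/- minus WT between -4.33 and 0.29, and that of XLF-/-PAXX-/- minus XLF-/- between -3.75 and 0.87. Without overlaps of 10 or more, the difference in microhomology length was 0.0154 bases for XLF-/- minus WT and 0.0649 for XLF-/-PAXX-/- minus WT, a direct result of removing the longest overlaps. The remaining 162 of 167 values under settings other than leaving out a library or clone kept their direction and their call. For the tests over clones and the counts of calls, which cannot be negative, only the call or the size could change. Within the run with 2 libraries of each genotype no call was possible. Sizes could still move, in both directions. In blunt share, XLF-/-PAXX-/- minus WT was -1.45 points with insertions in the denominator (exact permutation p = 0.25), instead of -3.46. It was -4.51 points with the left-out windows put back (exact permutation p = 0.0119, adjusted p = 0.286). Without overlaps of 10 or more it was -4.63 points (exact permutation p = 0.0238, adjusted p = 0.429). Ligase4-/- minus WT was -2.74, -4.14 and -4.23 points in the same 3 settings, instead of -3.31.

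The blunt excess over Sα moved as follows with 1 library or clone left out. It ran between 12.9 and 15.3 points for Ligase4-/- minus WT, 13.2 and 18.3 for XLF-/- minus WT and 13.0 and 15.4 for XLF-/-PAXX-/- minus WT, and each of these 3 lost its call without any 1 of the WT libraries (exact permutation, adjusted p over the 8 contrasts = 0.0571) or without either clone of its own (adjusted p = 0.133 to 0.160), because fewer libraries allow no smaller exact p. It ran between -0.16 and 4.49 points for PAXX-/- minus WT. For XLF-/-PAXX-/- minus XLF-/- it ran between -4.05, called without XLF-/- clone 1 (exact permutation, adjusted p = 0.0238), and 1.05 without XLF-/- clone 2. For Ligase4-/- minus XLF-/-PAXX-/- it ran between -1.33 and 1.13, and was 0.48 with prey of 50 bases or more and 0.14 without overlaps of 10 or more. The excess over PAXX-/- kept its call in all these settings. Interchromosomal against Sα joins kept their direction and call in all settings tried, for the blunt share, long microhomology and mean length, but without overlaps of 10 or more the last 2 shrank to 3.71 points (adjusted p = 0.043 by exact sign-flip permutation) and 0.484 bases. Among chromosome shares, 0 of 20 were called after adjustment in any setting tried, and 0 to 2 had an unadjusted exact permutation p of 0.05 or less. Depth limits single libraries, which held 369 to 2266 joins, 428 to 549 in the 3 of WT.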

Other observations

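A second set of recurrent windows was taken from junctions that are no part of the joins described, those off chromosome 12 with inserted or unassigned bases. Windows of 10 kb that held such junctions in 3 or more libraries numbered 253. These junctions numbered 4340 in Ligase4-/-, 2103 in XLF-/-PAXX-/-, 2043 in XLF-/-, 1909 in PAXX-/- and 616 in WT libraries. Genotypes with more of them had more chance to place a window in this set. Of each 1000 interchromosomal joins, 80.7 ± 53.5 lay in them in Ligase4-/-, 48.1 ± 7.47 in XLF-/-PAXX-/-, 52.3 ± 29.0 in XLF-/- and 19.1 ± 7.92 in PAXX-/- libraries (SD, n = 6 each), and 21.6 ± 11.6 in WT libraries (SD, n = 3). Blunt joins there were 77 of 883 (8.72%) in Ligase4-/-, 36 of 279 (12.9%) in XLF-/-PAXX-/-, 25 of 225 (11.1%) in XLF-/-, 18 of 86 (20.9%) in PAXX-/- and 6 of 30 (20.0%) in WT libraries. The libraries were the same as those that gave the joins, and this set was chosen after the first had been seen, so the values are given without a test.

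In library 2 of Ligase4-/- clone 2, interchromosomal joins of this kind were 44.99% of its junctions off chromosome 12, against 61.4% to 82.7% in every other library.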
